A study of Homo sapiens with 18 samples.

Results

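Near the genes of the insulin-like growth factor (IGF) system, GR was called at 19 separate regions over the 6 siRNA combinations, of 9736 regions in the whole data set. The genes were the 7 IGF binding proteins IGFBP1 to IGFBP7, the ligands IGF1 and IGF2, and the receptor IGF1R, 10 genes in all. A GR binding region (GBR) was counted when its summit lay within 100 kb of the transcription start site (TSS) of the gene's canonical transcript. The siHic5/siNS list held 18 of the 19 regions, and the siNS/siNS list held 5. Of the genes, 7 had at least 1 GBR, namely IGFBP1, IGFBP2, IGFBP3, IGFBP4, IGFBP6, IGFBP7 and IGF1, and IGFBP5, IGF2 and IGF1R had none in any list. Every number of GBR below comes from a single pooled peak list for each siRNA combination and has no replicate spread, so no difference between combinations was tested.

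IGF1 and IGF2 are secreted growth factors that signal for growth, survival and differentiation through the receptor tyrosine kinase IGF1R. The IGF binding proteins hold the ligands in the circulation and around cells and so limit or prolong their access to the receptor. Glucocorticoids are known to act on bone partly through this system, and IGFBP1 is a classical glucocorticoid-induced gene in liver.

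The cells were U2OS-GRα, an established human osteosarcoma line, here one that carries a stably introduced glucocorticoid receptor α (GR, NR3C1), so the receptor was not at its endogenous level. They received one of 6 siRNA combinations: control siRNA alone (siNS/siNS), siRNA against Hic-5 (siHic5/siNS), CHD9 (siCHD9/siNS) or BRM (siBRM/siNS), or Hic-5 together with CHD9 (siCHD9/siHic5) or with BRM (siBRM/siHic5). Hic-5 is a GR coregulator, and CHD9 and BRM are ATP-dependent chromatin remodelers. All cells, controls included, were given 100 nM dexamethasone (dex), a synthetic glucocorticoid, for 1 h, starting 48 h after transfection, and GR was mapped by ChIP-seq with 2 libraries and 1 input library per combination. No combination used here lacked hormone, and peak lists cannot show how far each protein was depleted. The 6 lists held 1278 to 9533 GBR, with the fewest after siBRM/siNS and the most after siHic5/siNS. They hold no read counts, and the sequencing depth of the libraries was not analysed here. The lowest −log10 q-value of a called peak was 14.2 in siBRM/siHic5 and between 7.26 and 8.91 in the other lists. Entry into the siBRM/siHic5 list thus took a higher −log10 q-value, which does not by itself mean stronger GR binding.

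Each GBR is named below by the nearest of the 10 genes and the distance of its summit from that TSS, with plus for downstream. The sequences shown are of GBR that were nearest to the TSS of a gene or had its highest −log10 p-value in Hic-5 depleted cells, because each gene with a GBR is then represented. Some motif matches described below lie in regions not shown. Of these 7 regions, the first 3 were called in all 6 lists and the last 4 only in siHic5/siNS. Each sequence is the plus strand of GRCh38 over 200 bp centered on the siHic5/siNS summit. IGFBP6 −17.7 kb and IGFBP7 +45.2 kb hold no match and so no capitals. Capitals mark matches to a glucocorticoid response element (GRE), the palindromic site bound by a GR dimer, taken here as GNACA followed by 3 bases of any kind and then TGTNC, with at most 1 mismatch at the 8 defined positions.
IGFBP1 +1.1 kb, chr7:45889469-45889668: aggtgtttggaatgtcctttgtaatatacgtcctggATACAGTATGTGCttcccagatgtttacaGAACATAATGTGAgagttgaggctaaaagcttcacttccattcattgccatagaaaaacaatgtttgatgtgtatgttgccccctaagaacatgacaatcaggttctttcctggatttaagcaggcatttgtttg
IGFBP2 −97.8 kb, chr2:216535495-216535694: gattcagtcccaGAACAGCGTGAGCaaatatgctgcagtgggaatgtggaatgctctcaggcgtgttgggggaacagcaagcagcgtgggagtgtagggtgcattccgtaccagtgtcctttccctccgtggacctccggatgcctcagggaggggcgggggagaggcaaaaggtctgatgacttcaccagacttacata
IGFBP4 +67.0 kb, chr17:40510351-40510550: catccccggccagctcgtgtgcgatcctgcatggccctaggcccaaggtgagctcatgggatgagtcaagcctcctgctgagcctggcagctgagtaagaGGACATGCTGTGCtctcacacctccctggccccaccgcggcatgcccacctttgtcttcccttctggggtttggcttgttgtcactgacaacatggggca
IGFBP4 −5.9 kb, chr17:40437441-40437640: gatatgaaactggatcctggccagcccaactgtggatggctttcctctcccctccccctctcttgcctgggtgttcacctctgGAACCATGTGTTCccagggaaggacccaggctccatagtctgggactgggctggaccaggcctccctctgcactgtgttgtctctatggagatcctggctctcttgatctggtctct
IGFBP6 −17.7 kb, chr12:53079861-53080060: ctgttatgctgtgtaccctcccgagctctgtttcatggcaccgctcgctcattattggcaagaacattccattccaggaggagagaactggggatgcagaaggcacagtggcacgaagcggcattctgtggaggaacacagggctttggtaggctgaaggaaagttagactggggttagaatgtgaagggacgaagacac
IGFBP7 +45.2 kb, chr4:57065073-57065272: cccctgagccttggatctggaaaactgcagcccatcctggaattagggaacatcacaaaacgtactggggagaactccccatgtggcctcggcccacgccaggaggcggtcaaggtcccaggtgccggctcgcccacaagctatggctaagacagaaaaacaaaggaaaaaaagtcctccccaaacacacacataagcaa
IGF1 −53.5 kb, chr12:102534005-102534204: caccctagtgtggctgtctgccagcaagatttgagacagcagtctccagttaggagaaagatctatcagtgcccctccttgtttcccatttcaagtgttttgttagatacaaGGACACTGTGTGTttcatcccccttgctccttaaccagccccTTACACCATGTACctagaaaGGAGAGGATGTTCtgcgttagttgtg

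In cells containing Hic-5 (siNS/siNS), 5 of the 10 genes had a GBR within 100 kb, against 17.0% of all 20033 protein-coding genes. After Hic-5 depletion 7 genes (70.0%) had one, against 43.6% of protein-coding genes. With CHD9 also depleted (siCHD9/siHic5) the number was 5, against 16.4%, and with BRM also depleted (siBRM/siHic5) it was 5, against 22.2%. In the single depletions siCHD9/siNS and siBRM/siNS it was again 5, against 10.5% and 9.92%. The 5 genes were the same in every list outside siHic5/siNS: IGFBP1, IGFBP2, IGFBP3, IGFBP4 and IGFBP6. IGFBP1 and IGFBP3 are neighbors whose TSS lie 32.8 kb apart, so they shared their GBR: 2 regions counted for both in siHic5/siNS, and 1 in each other list. IGFBP7 and IGF1 had a GBR in siHic5/siNS only. A GBR within 100 kb need not act on the gene: only 6 of the 19 regions had one of these genes as the nearest protein-coding TSS, and in siNS/siNS only the region inside IGFBP1 did.

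**Figure D1:**
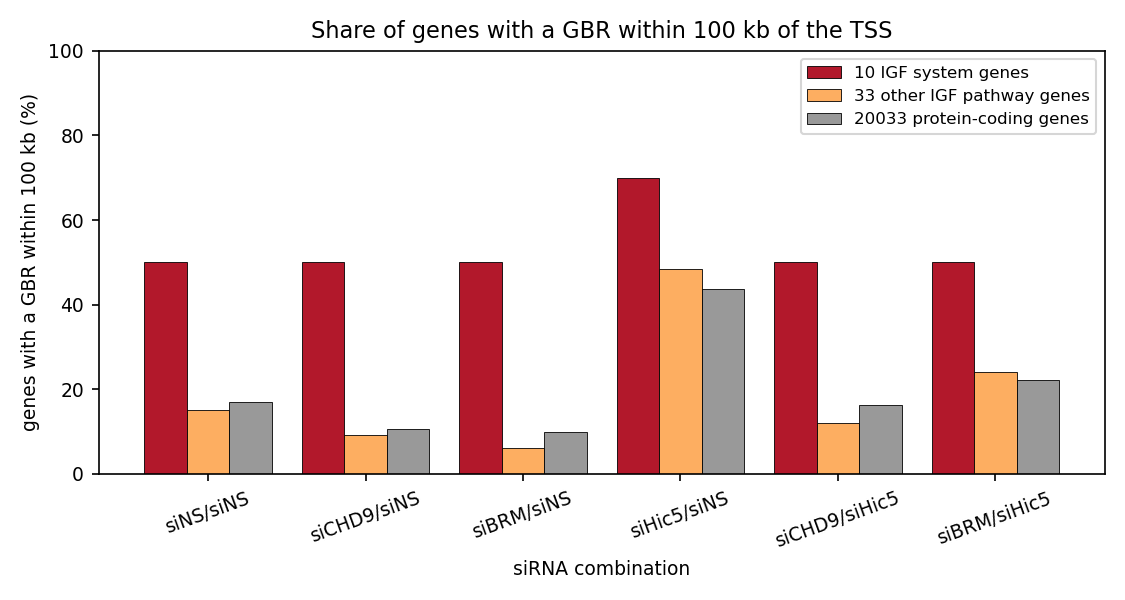
Percentage of genes with at least 1 GBR within 100 kb of the canonical TSS in each siRNA combination, for the 10 IGF system genes, for 33 other genes of the IGF pathway and for all 20033 protein-coding genes. The bar for the IGF system genes stands for 5 of 10 genes in 5 lists and for 7 of 10 (70.0%) in siHic5/siNS, while the other bars follow the length of each list; each bar is 1 pooled list and has no error bar.

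Of the 18 siHic5/siNS GBR near these genes, 13 (72.2%) had no overlapping siNS/siNS peak and were thus blocked GBR in the sense of peak overlap, against 74.0% of all 9533 siHic5/siNS GBR. In siCHD9/siHic5, 12 of the 18 (66.7%) were not called, against 75.4% of all, and in siBRM/siHic5 11 (61.1%) were not called, against 65.4% of all. Called in siHic5/siNS and in no other list were 9 of the 18, against 58.7% of all. These shares lie near those of all siHic5/siNS GBR. In all 6 lists, 4 of the 18 (22.2%) were called, against 9.25% of all; over merged regions, the share of all regions called in all 6 lists was 9.05%. Of the 5 siNS/siNS GBR, 1 was missing from siCHD9/siNS, where 51.4% of all siNS/siNS GBR were missing, and the same 1 was missing from siBRM/siNS, where 52.2% were.

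The blocked GBR near these genes were the weaker ones. In the siHic5/siNS list their median −log10 p-value was 18.5 (range 12.1 to 58.2), against 90.6 (53.5 to 189) for the 5 shared GBR. Over all GBR of that list the medians were 18.7 for blocked and 54.7 for shared GBR. The strongest blocked GBR ranked 1282 of 9533, and the weakest shared GBR ranked 1469, so the groups overlapped by this single pair. Both lie in introns of TNS4, downstream of IGFBP4.

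**Figure D2:**
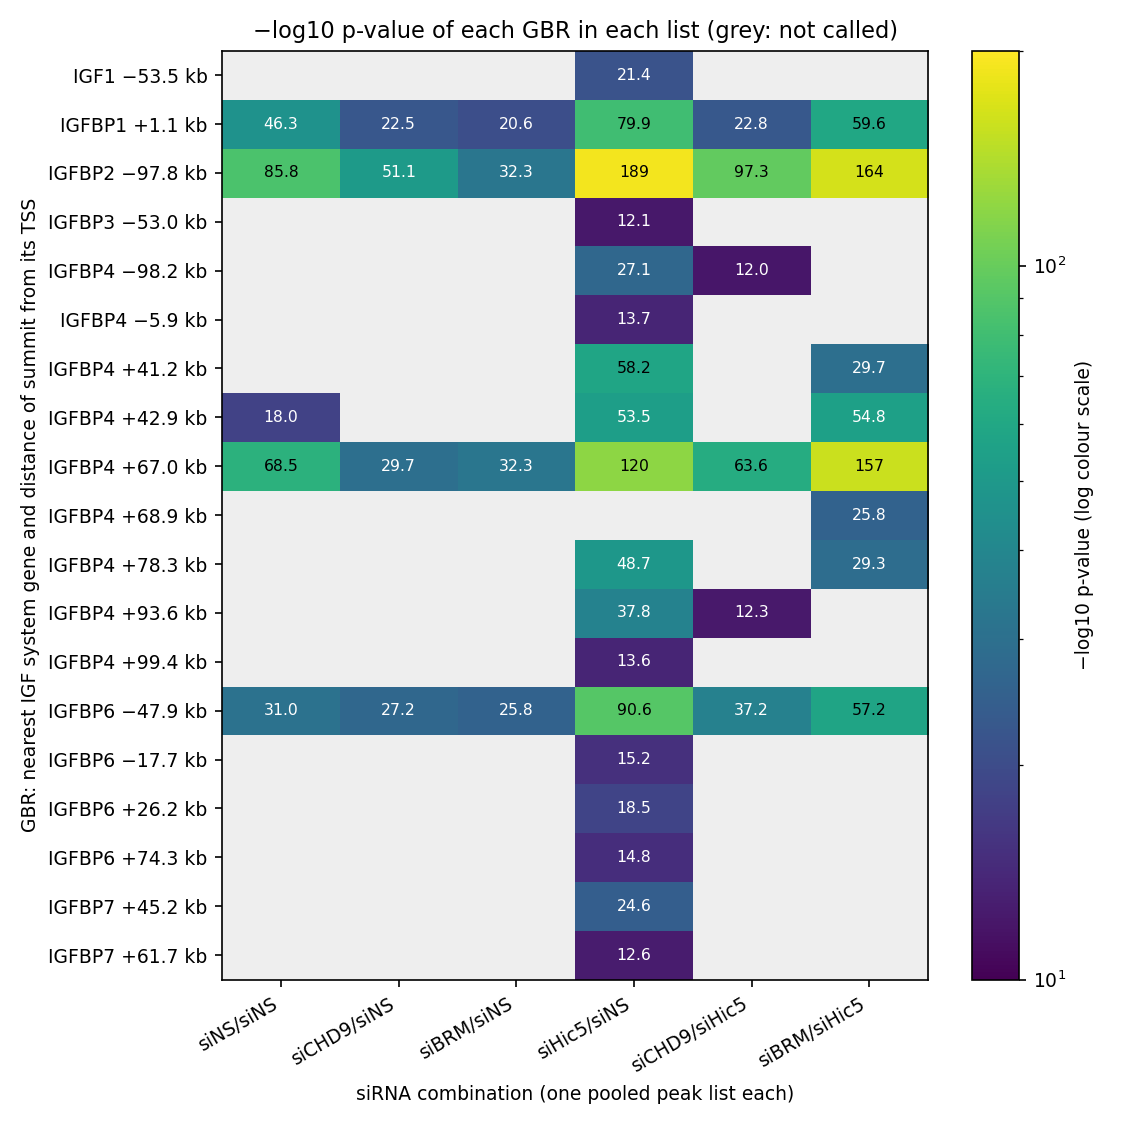
The −log10 p-value of each of the 19 GBR (rows) in each siRNA combination (columns), as deposited, with grey where no peak was called. Across all columns 4 rows are filled (IGFBP1 +1.1 kb, IGFBP2 −97.8 kb, IGFBP4 +67.0 kb and IGFBP6 −47.9 kb), 9 rows are filled only in siHic5/siNS, and IGFBP4 +68.9 kb is filled only in siBRM/siHic5.

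IGFBP1 (ENSG00000146678.10, chromosome 7 from 45888360 to 45893660, plus strand), which encodes a binding protein that responds acutely to hormones and feeding, had the GBR nearest to a TSS among the 10 genes, followed by IGFBP4 −5.9 kb. This GBR (siHic5/siNS, chr7:45889120-45889992) lies 1.1 kb downstream, in an intron. Its signal value, the enrichment that the deposited lists give for each peak, was 12.0 in siNS/siNS, 15.4 in siHic5/siNS, 7.41 in siCHD9/siHic5, 8.45 in siCHD9/siNS, 12.5 in siBRM/siHic5 and 7.19 in siBRM/siNS. The value was thus highest in siHic5/siNS. In siBRM/siHic5 it was close to the siNS/siNS value, and it was lowest in the lists with CHD9 depleted and in siBRM/siNS. The siHic5/siNS value was 1.28 times the siNS/siNS value, and the median of this ratio over the 2470 regions called in both lists was 1.71 (quartiles 1.33 and 2.18). Among those regions 22.3% had a lower ratio, so the rise in signal value at the IGFBP1 GBR was smaller than at most of them. The peak was 666 bp wide in siNS/siNS, 873 bp in siHic5/siNS and 490 to 681 bp in the other lists, and its summit moved by at most 69 bp from the siHic5/siNS summit. The sequence shown above holds 2 GRE matches, each with 1 mismatch: GAACATAATGTGA, whose middle is 29 bp from the summit, and ATACAGTATGTGC, at 58 bp.

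IGFBP3 (ENSG00000146674.16, chromosome 7 from 45912245 to 45921874, minus strand) encodes the main carrier of IGFs in serum. The GBR inside IGFBP1 lies 31.7 kb downstream of the IGFBP3 TSS. The other GBR of this locus, IGFBP3 −53.0 kb (chr7:45974009-45974984), was called only in siHic5/siNS, with a signal value of 4.86 and rank 9359 of 9533, in an intron of an unnamed lncRNA (ENSG00000237471). It was the weakest of the 18 siHic5/siNS GBR, and none of the motifs searched was found in its 200-bp window.

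IGFBP2 (ENSG00000115457.10, chromosome 2 from 216632828 to 216664436, plus strand), a binding protein abundant in fetal tissue and in many tumors, had 1 GBR, and it was the strongest of all 19. IGFBP2 −97.8 kb (chr2:216535084-216536134) lies far upstream, in an intron of an annotated RPL37A transcript, 36.8 kb from the nearest protein-coding TSS, that of the ribosomal protein gene RPL37A. Its signal value was 15.6 in siNS/siNS, 30.8 in siHic5/siNS, 18.6 in siCHD9/siHic5, 12.7 in siCHD9/siNS, 25.4 in siBRM/siHic5 and 7.26 in siBRM/siNS. It was highest in siHic5/siNS and lowest in siBRM/siNS. It ranked 109 in the siHic5/siNS list, and its place among regions called in every list is given below. The siHic5/siNS value was 4.24 times that of siBRM/siNS, above 97.1% of the 1246 regions called in both lists, whose median ratio was 2.27, whereas it was 1.21 times that of siBRM/siHic5 (median over 3295 regions 1.31). The summit stayed within 14 bp in all lists. Its only GRE match, GAACAGCGTGAGC with 1 mismatch, had its middle 82 bp from the summit. IGFBP5 (ENSG00000115461.5), a major binding protein of bone, faces IGFBP2 on the minus strand with its TSS 62.1 kb away, and the same GBR lay 160.0 kb from it, outside the distance used here. No other GBR came closer to IGFBP5 in siNS/siNS or siHic5/siNS.

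IGFBP4 (ENSG00000141753.7, chromosome 17 from 40443450 to 40457725, plus strand), a binding protein that inhibits IGF action and is secreted by osteoblasts, had the most GBR, 8 in siHic5/siNS, which is 44.4% of the 18. Within 50 kb the count was 3, as many as for IGFBP6. Of all protein-coding genes, 0.504% had 8 or more siHic5/siNS GBR within 100 kb. Of the 9 IGFBP4 regions, counting the one called only in siBRM/siHic5, 7 lay downstream within 58.2 kb, from +41.2 kb to +99.4 kb. Most are nearer to another gene: those from +41.2 to +78.3 kb to TNS4, a focal adhesion protein gene, and those at +93.6 and +99.4 kb to CCR7, a chemokine receptor gene. Only IGFBP4 −5.9 kb (chr17:40437358-40437732) had the IGFBP4 TSS nearest, and it was called in siHic5/siNS alone, with a signal value of 6.27 and rank 8272.

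**Figure D3:**
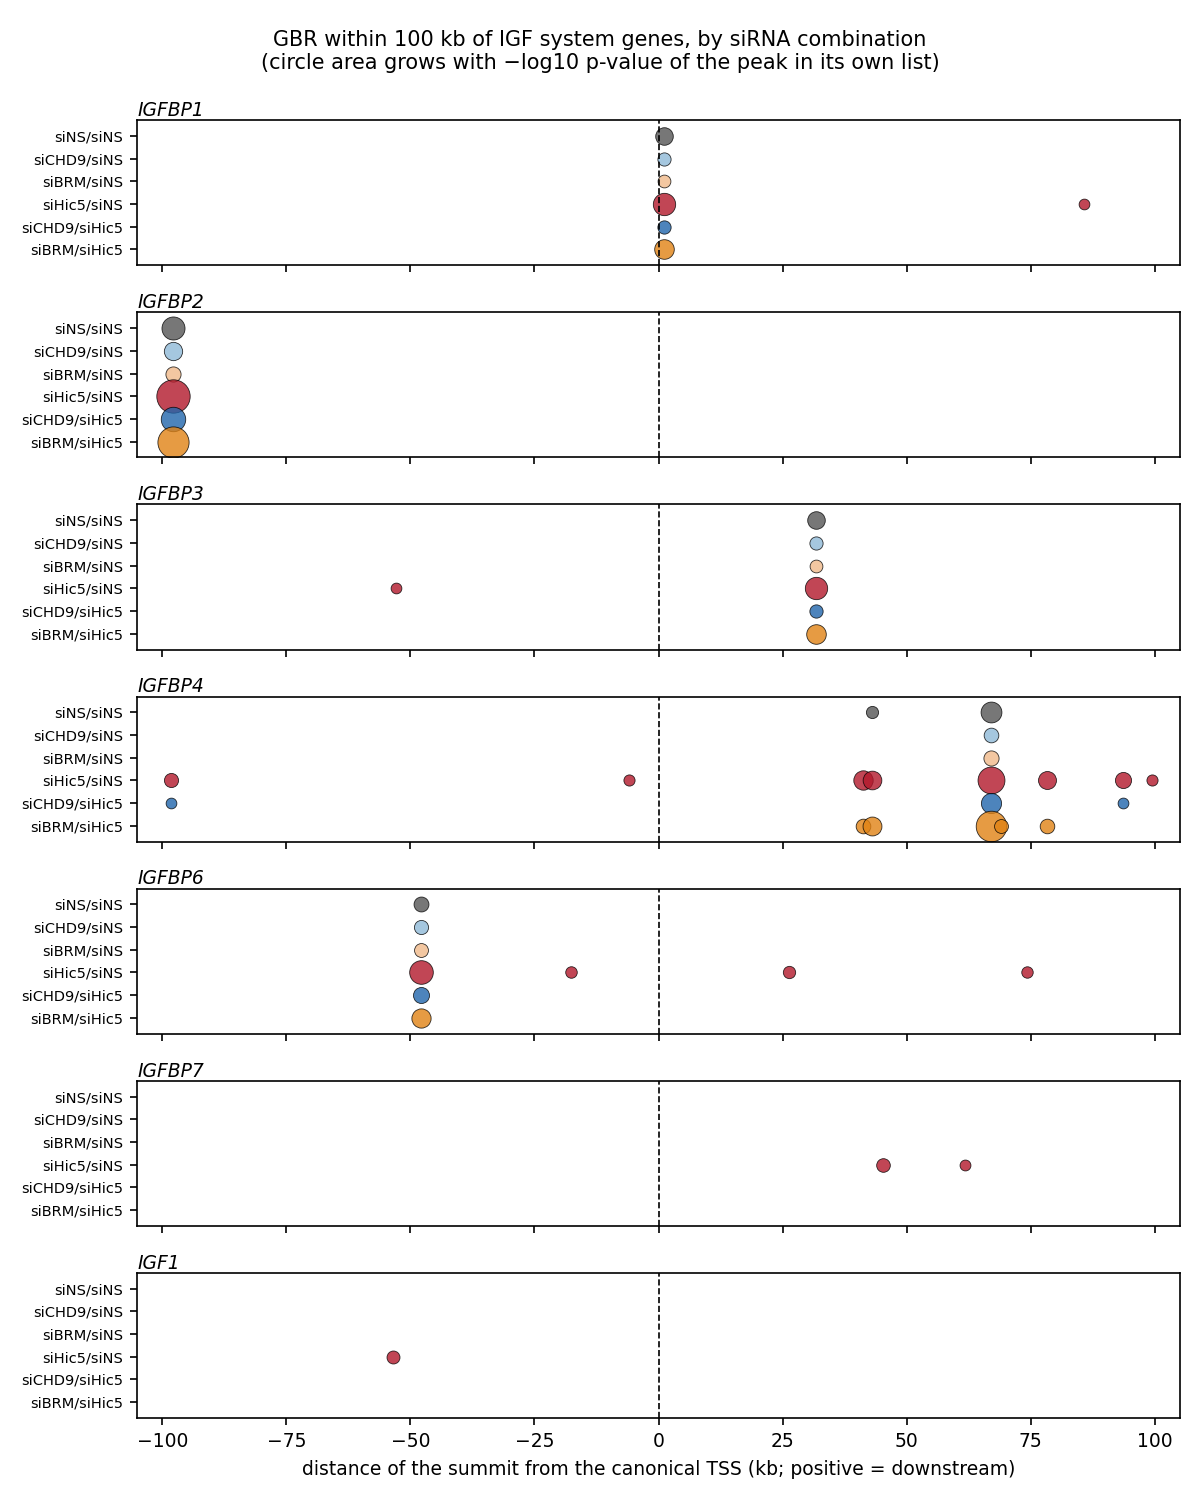
Distance in kb of each GBR summit from the canonical TSS (dashed line; positive is downstream) for the 7 genes with a GBR, with 1 row for each siRNA combination and circle area growing with the −log10 p-value. IGFBP1 and IGFBP3 show the same regions from their own TSS; the IGFBP4 panel shows 8 circles in siHic5/siNS, 5 in siBRM/siHic5, 3 in siCHD9/siHic5, 2 in siNS/siNS and 1 in each single remodeler depletion.

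Of the IGFBP4 regions, +67.0 kb (chr17:40509834-40510779, intergenic) was called in every list. Its signal value was 11.7 in siNS/siNS, 20.4 in siHic5/siNS, 13.9 in siCHD9/siHic5, 8.01 in siCHD9/siNS, 19.1 in siBRM/siHic5 and 7.34 in siBRM/siNS. The values of siHic5/siNS and siBRM/siHic5 were close, and the 2 single remodeler depletions were lowest. The sequence above holds the GRE match GGACATGCTGTGC with no mismatch, its middle 6 bp from the summit, and an AP-1 match, TGAGTCA as read in the printed strand, 36 bp from it. The GBR at +42.9 kb (chr17:40485510-40486884), in an intron of TNS4, was called in siNS/siNS with a signal value of 6.08, in siHic5/siNS with 13.1 and in siBRM/siHic5 with 11.2, and in no list with CHD9 depleted nor in siBRM/siNS. It was the widest of the 18, at 1375 bp in siHic5/siNS against 697 bp in siNS/siNS, and it held no GRE match.

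The remaining 6 IGFBP4 GBR of siHic5/siNS were blocked GBR. Those at +41.2 kb (chr17:40484371-40484961, TNS4 intron) and +78.3 kb (chr17:40521002-40522063, intron of an unnamed lncRNA) were called in siBRM/siHic5 and not in siCHD9/siHic5. Their signal values were 15.0 and 13.4 in siHic5/siNS and 7.93 and 7.79 in siBRM/siHic5. Those at −98.2 kb (chr17:40344903-40345681, in an intron of RARA, the retinoic acid receptor α gene) and +93.6 kb (chr17:40536647-40537280, intergenic) were called in siCHD9/siHic5 and not in siBRM/siHic5, with signal values of 7.47 and 9.46 in siHic5/siNS and 4.79 and 5.05 in siCHD9/siHic5. The former pair ranked 1282 and 1668 in siHic5/siNS and the latter 3773 and 2396. In siCHD9/siHic5 the latter pair ranked 2311 and 2278 of 2451, near the end of the list, with −log10 q-values of 8.24 and 8.51, both below the lowest value of the siBRM/siHic5 list, 14.2. The part of the different list cutoffs in these calls was not tested. The last 2, −5.9 kb and +99.4 kb (chr17:40542384-40543104), were called in neither. A region at +68.9 kb (chr17:40512093-40512708), beside the GBR at +67.0 kb, was called only in siBRM/siHic5, with a signal value of 7.18 and rank 2260 of 3383, and was the only 1 of the 19 regions absent from siHic5/siNS.

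Away from IGFBP4 all 7 blocked GBR, near IGFBP3, IGFBP6, IGFBP7 and IGF1, were called only in siHic5/siNS, whereas of the 6 near IGFBP4, 4 were called in 1 of the doubly depleted lists. Those 4 were also the strongest blocked GBR, with ranks from 1282 to 3773 in siHic5/siNS. The other 2 near IGFBP4 ranked 8272 and 8301, and the 7 elsewhere ranked 4244 to 9359. The part of peak strength in this contrast was not tested. Over all blocked GBR of the data set, 79.5% were absent from both doubly depleted lists, and over the 13 described here 9 (69.2%) were.

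IGFBP6 (ENSG00000167779.9, chromosome 12 from 53097436 to 53102345, plus strand), a binding protein that prefers IGF2 over IGF1, had 4 GBR in siHic5/siNS. The strongest, IGFBP6 −47.9 kb, lies in an intron of TNS2, another tensin gene, and of its antisense lncRNA gene TNS2-AS1, 0.268 kb from the nearest TSS of TNS2, and was called in all lists. Its signal value was 6.38 in siNS/siNS, 21.1 in siHic5/siNS, 10.4 in siCHD9/siHic5, 10.0 in siCHD9/siNS, 9.75 in siBRM/siHic5 and 7.57 in siBRM/siNS. It was highest after Hic-5 depletion alone and lowest in siNS/siNS, whereas the other 3 GBR called in all lists had a higher siNS/siNS value than in either single remodeler depletion. The −log10 p-values themselves did not show this contrast, since IGFBP6 −47.9 kb was at 31.0 in siNS/siNS, 27.2 in siCHD9/siNS and 25.8 in siBRM/siNS. Its place by −log10 p-value among the regions called in all 6 lists did show it. Counted from the top, that place was 71.9% in siNS/siNS, 43.6% in siCHD9/siNS and 43.5% in siBRM/siNS. The other 3 GBR stood lower in both single remodeler depletions than in siNS/siNS. The siHic5/siNS signal value of IGFBP6 −47.9 kb was 3.31 times that of siNS/siNS, higher than the ratio of 96.8% of the 2470 regions called in both. It was 2.16 times that of siBRM/siHic5, higher than the ratio of 93.7% of 3295 regions.

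The other 3 GBR near IGFBP6 were called in siHic5/siNS only. IGFBP6 −17.7 kb (chr12:53079702-53080087) is intergenic and lies 0.571 kb from the TSS of SPRYD3, and IGFBP6 +26.2 kb (chr12:53123619-53123978) and IGFBP6 +74.3 kb (chr12:53171634-53172105) have their summits in coding exons of SOAT2, an enzyme of cholesterol esterification, and CSAD, an enzyme of taurine synthesis. Their signal values were 5.94, 6.10 and 6.62, and they ranked 7427, 5955 and 7609 of 9533. They were weak peaks, all in the lower part of the list. Only the one in SOAT2 held a GRE match, GGTCAGCCTGTAC, with 1 mismatch and its middle 7 bp from the summit.

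IGFBP7 (ENSG00000163453.11, chromosome 4 from 57030773 to 57110385, minus strand) encodes a more distant member of the family that binds IGFs weakly and is deposited in the matrix. Both of its GBR lie within its own introns, at +45.2 kb (chr4:57064933-57065466) and +61.7 kb (chr4:57048515-57049119), and were called only in siHic5/siNS. Their signal values were 7.15 and 4.91 and their ranks 4244 and 9147. None of the motifs searched was found in either 200-bp window, and the sequence of the former is shown above without capitals.

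IGF1 (ENSG00000017427.17, chromosome 12 from 102395874 to 102481744, minus strand) was the only ligand gene with a GBR. IGF1 −53.5 kb (chr12:102533954-102534321) is intergenic, has IGF1 as its nearest protein-coding gene, and was called only in siHic5/siNS with a signal value of 8.09 and rank 4996. Its window held 3 GRE matches with 1 mismatch each, GGACACTGTGTGT, TTACACCATGTAC and GGAGAGGATGTTC, with middles 18, 60 and 80 bp from the summit, more than any other of the regions. For IGF2 (ENSG00000167244.22, chromosome 11) the nearest siHic5/siNS GBR lay 262.4 kb away and ranked 8729, and for IGF1R (ENSG00000140443.15, chromosome 15) it lay 191.7 kb downstream of the TSS, within the long gene itself, and ranked 7161. Both of these siHic5/siNS peaks were weak and lay outside the distance used. Stronger GBR lay farther away in other lists. In siNS/siNS the nearest GBR to the IGF2 TSS lay 312.1 kb away and ranked 341. For IGF1R it lay 256.3 kb downstream, also within the gene, and ranked 1058. In siBRM/siHic5 the nearest GBR to the IGF1R TSS lay at the same distance and ranked 910.

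Among the regions called in all 6 lists, 881 in number, the 4 near IGF system genes could be placed by −log10 p-value within each list, counted from the top. IGFBP2 −97.8 kb stood at 14.9% in siNS/siNS, 12.3% in siHic5/siNS, 11.9% in siCHD9/siHic5, 16.3% in siCHD9/siNS and 16.0% in siBRM/siHic5, but at 29.2% in siBRM/siNS. IGFBP4 +67.0 kb stood between 17.8% (siBRM/siHic5) and 38.8% (siCHD9/siNS). IGFBP1 +1.1 kb stood highest in siNS/siNS, at 42.3%, and lowest in siCHD9/siHic5, at 82.1%, with 66.6% in siHic5/siNS. IGFBP6 −47.9 kb stood highest in siBRM/siNS, at 43.5%, and siCHD9/siNS, at 43.6%, and lowest in siBRM/siHic5, at 75.0%. It stood at 71.9% in siNS/siNS, 55.5% in siHic5/siNS and 53.2% in siCHD9/siHic5. Between siNS/siNS and siHic5/siNS the GBR of IGFBP1 thus moved down and that of IGFBP6 up among the same 881 regions. These are places in single lists, and no spread is known for them.

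**Figure D4:**
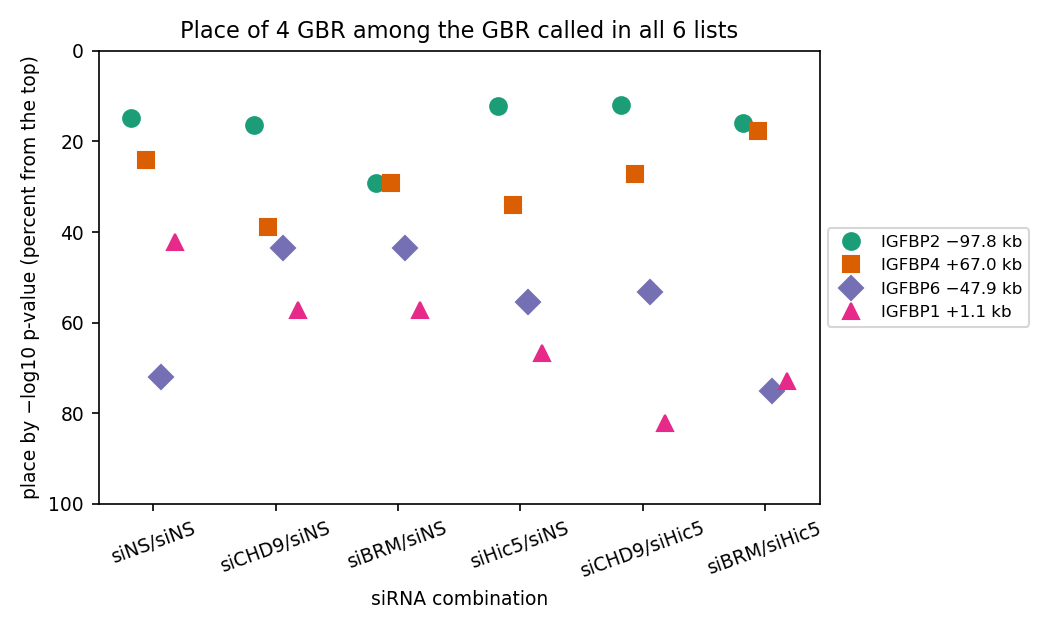
Place, in percent from the top by −log10 p-value, of the 4 GBR near IGF system genes among the 881 regions called in all 6 lists, with 1 point for each siRNA combination, set side by side where they would overlap. IGFBP2 −97.8 kb stays between 11.9% and 16.3% except in siBRM/siNS, where it shares 29.2% with IGFBP4 +67.0 kb, and IGFBP1 +1.1 kb goes from 42.3% in siNS/siNS to 82.1% in siCHD9/siHic5; the points have no error bars because each list is a single pooled call.

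Within 200 bp of the summit, 11 of the 18 siHic5/siNS GBR (61.1%) held a GRE match, against 60.0% of all siHic5/siNS GBR and 6.29% of windows of the same size 5 kb to either side. By class, 4 of the 5 shared and 7 of the 13 blocked GBR held one, against 74.1% of all shared and 55.1% of all blocked GBR. Matches with no mismatch were found in 4 of the 18, among them IGFBP4 +41.2, +67.0 and +99.4 kb, against 17.6% of all GBR. The match at +41.2 kb, GGACACCCTGTCC, had its middle 1 bp from the summit. For AP-1 (TGACTCA or TGAGTCA, reverse complements of each other) 2 of the 18 held a match, against 19.4% of all GBR and 3.37% of the windows to either side. For ETS (CAGGAAGT, CAGGAAGC, CCGGAAGT or CCGGAAGC, both strands) it was also 2, IGFBP4 +41.2 kb and +93.6 kb, against 8.27% of all and 3.54% to either side. Both GBR with an ETS match were blocked GBR, as were 13 of the 18, and over the data set 8.88% of blocked and 6.51% of shared GBR held one. Of the 18, +41.2 kb alone held all 3 motifs. Mean GC content of the windows was 54.1% (SD 7.26 across the 18 GBR), against 49.8% (SD 9.48) over all siHic5/siNS GBR. A match is a description of the sequence and does not show which protein was bound.

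By position, 8 of the 19 summits lay in introns of protein-coding genes (3 of these in IGFBP1 or IGFBP7), 2 in coding exons, 2 in introns of lncRNA genes alone and 7 between genes. The outermost regions included were IGFBP4 +99.4 kb, IGFBP4 −98.2 kb and IGFBP2 −97.8 kb. The nearest region left out lay 101.5 kb upstream of the IGFBP4 TSS in siHic5/siNS (chr17:40341335-40342267, rank 2482) and was called in siNS/siNS (rank 1820) and siBRM/siHic5 (rank 3018) as well.

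The wider IGF pathway was described with 33 other genes for receptors, carriers, proteases, mRNA binding proteins, adaptors and downstream kinases. In siNS/siNS 5 of the 33 (15.2%) had a GBR within 100 kb, in siHic5/siNS 16 (48.5%), in siCHD9/siHic5 4 (12.1%), in siCHD9/siNS 3 (9.09%), in siBRM/siHic5 8 (24.2%) and in siBRM/siNS 2 (6.06%). These shares lie near those of all protein-coding genes given above. The 5 genes with a siNS/siNS GBR were IGF2R, a scavenger receptor for IGF2, PAPPA2, a protease that cleaves IGF binding proteins, IGF2BP1 and IGF2BP2, which bind IGF2 mRNA, and SHC1, an adaptor of receptor tyrosine kinases. The strongest GBR of this group lay 46.7 kb upstream of SHC1, ranked 115 in siHic5/siNS and was called in all 6 lists, as was the strongest one of PAPPA2, 83.4 kb upstream, ranked 1022. That of IGF2BP2, in its own intron 93.0 kb downstream of the TSS, ranked 1285 and was called in 4 lists. That of IGF2R, in an intron of MAS1, ranked 4382 and was called in 3. That of IGF2BP1, 24.9 kb upstream, ranked 2074. It was called in siHic5/siNS, siCHD9/siNS and siBRM/siHic5, but not in siNS/siNS.

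Of the pathway genes with a GBR in siHic5/siNS but none in siNS/siNS, the insulin receptor gene INSR had the strongest, 74.1 kb upstream in an intron of ARHGEF18, ranked 1101. It was also called when CHD9 or BRM was depleted with Hic-5. The strongest GBR of FOXO3, a transcription factor held in check by IGF signaling, ranked 2231, lay in a FOXO3 intron and was called in siBRM/siHic5 as well, and so was that of TSC2, an inhibitor of the mTOR pathway, in a coding exon, ranked 2520. Those of PAPPA, the protease that cleaves IGFBP4 (rank 2742), of IGFBPL1 (rank 3810) and of PIK3R1, a regulatory subunit of PI3 kinase (rank 4342), were called only in siHic5/siNS.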

How the data were processed

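GR ChIP-seq libraries of 6 siRNA combinations (12 ChIP and 6 input libraries) were grouped by their labels. After trimming, the authors aligned the reads (single-end) to GRCh38/hg38 using BWA and discarded duplicates and mitochondrial reads. Peaks came from MACS2 with the IDR framework, and the peak names mark them as made from pooled replicates (versions and IDR threshold not given in the sources used here). Of each deposited list the signal value, the −log10 p-value and the −log10 q-value were used. The signal value is fold enrichment in the MACS2 format, but the study describes it as average enrichment in CPM, so it was treated as a signal set by the authors.

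Ranks are by −log10 p-value within a list, with ties sharing the best rank. Canonical TSS came from GENCODE release 44, and all peaks fell inside GRCh38 sequences. Lists were matched by an overlap of at least 1 bp. Ratios of signal values between lists are given beside their median over all regions called in both lists, since the lists differ in cutoff and their depth was not analysed here. No test was run. The genes and lists were chosen with earlier results of these data known. Every GBR within 100 kb of a member gene is described; sequences are shown for the nearest and the strongest GBR of each gene, except 1 that is not reported here, and of the 33 pathway genes those with a siNS/siNS GBR and the 6 others with the strongest GBR are named. Overlap counting and motif search were checked on simulated data. Windows 5 kb to either side of the summits served as background for motifs. Alternatives were other distances, TSS, thresholds, overlap rules and motif settings. Python 3.11.15, NumPy 2.4.6, pandas 2.3.3, pysam 0.24.0, samtools 1.23.1, bedtools 2.31.1 and Matplotlib 3.10.9 were used.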

Additional observations from a re-analysis of the deposited data

How the results depend on the processing

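No paired analysis was possible because each list was called on the 2 pooled replicates, and for the same reason leaving out a replicate was not possible. Of 106 values under 10 alternative settings, 63 stayed within 1.5 times the value reported and 43 did not; the counts are small, so 1 or 2 GBR often decide. With 50 kb in place of 100 kb, GBR near these genes numbered 3 in siNS/siNS, 8 in siHic5/siNS, 2 in siCHD9/siHic5, 2 in siCHD9/siNS, 4 in siBRM/siHic5 and 2 in siBRM/siNS; 3 genes had a GBR in siCHD9/siHic5, siCHD9/siNS and siBRM/siNS. Of the 8 in siHic5/siNS, 5 were absent from siNS/siNS, 6 from siCHD9/siHic5 and 4 from siBRM/siHic5, and 2 were called in all 6 lists. With 200 kb there were 8 GBR in siNS/siNS, 26 in siHic5/siNS and 13 in siBRM/siHic5, and 19 of the 26 were absent from siCHD9/siHic5. With the TSS of any annotated transcript, siHic5/siNS held 25 GBR, of which 19 were absent from siCHD9/siHic5 and 17 from siBRM/siHic5. Under that setting 8 of the genes had a GBR in siHic5/siNS. In siNS/siNS, siBRM/siHic5 and siBRM/siNS the number of genes was 6, and in the lists with CHD9 depleted it was 5. With one −log10 q-value threshold of 14.2 for all lists, siHic5/siNS held 12 GBR. Of these 12, 8 were absent from siNS/siNS, 8 from siCHD9/siHic5 and 5 from siBRM/siHic5. Shares over all GBR are not given here for the alternative distances, TSS and thresholds. With the 1000 strongest peaks of each list, siHic5/siNS held 4 GBR, siCHD9/siHic5 3 (near 3 genes) and siBRM/siHic5 5, and of the 4, 0 were absent from siNS/siNS, 1 from siCHD9/siHic5 and 0 from siBRM/siHic5. When a GBR counted only if the nearest protein-coding TSS was that of an IGF system gene, an alternative chosen after seeing the data, siHic5/siNS held 6 GBR and each other list 1, the one inside IGFBP1 (which still lies within reach of 2 genes); 5 of the 6 were absent from siNS/siNS, 5 from siCHD9/siHic5 and 5 from siBRM/siHic5, and 1 was called in all lists. GRE matches with no mismatch were found in 4 GBR. In a 1-kb window 11 of the 18 siHic5/siNS GBR (61.1%) held a GRE match, against 71.4% of all siHic5/siNS GBR. The other overlap rules moved no count by more than 1.5 times. By construction, shorter distances and shorter lists hold fewer GBR; other causes were not tested. Read depth was not analysed here, and an absent call does not show absent GR.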
